A study of Mus musculus with 6 samples.

Results

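Mouse genes named Zfp followed by a number are mostly zinc finger genes, and 226 of them were read deeply enough in 2-cell embryos to be followed one by one. They were chosen from the 342 genes of the gene table whose name is Zfp and digits with no letter after them, out of 26982 genes in all, by a sum of at least 600 raw counts over the 6 libraries. Zfp57, Zfp42 and Zfp352 were set aside by name, and 113 genes fell under the limit. Zfp78 with 603 counts and Zfp640 with 607 lay just inside it, and Zfp169 with 586 and Zfp125 with 580 just outside. The 226 entries carry 225 names, since Zfp319 has 2 adjoining entries. All 226 passed the filter on low counts used in the tests, 202 had at least 20 counts in every library, and Zfp498 had a library at 0.

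Each library was total RNA of mouse 2-cell embryos grown in KSOM medium, amplified and sequenced. In the Suv39h1wt and Suv39h1mut groups the zygotes had been microinjected, 18 h after hCG, with mRNA of Suv39h1wt or Suv39h1mut at 0.6 µg/µl, and the Non-injected group received no mRNA. Each group holds 2 libraries, numbered 1 and 2, and the labels do not give the strain, the number of embryos pooled or the amino acid changed in the mutant. No mock-injected group was analysed here, so the act of injection and the mRNA injected cannot be told apart in a comparison with non-injected embryos. The labels do not say whether both libraries of a group had separate sources, so p-values measure the spread between these libraries only.

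Zinc finger proteins of the Cys2-His2 class bind DNA through repeated fingers, each reading a few bases. Many mouse members also carry a KRAB domain near their start, which recruits Trim28 (KAP1) and, through it, the H3K9 methyltransferase Setdb1, so that KRAB zinc finger proteins silence retrotransposons and imprinted loci in early embryos. Suv39h1 is another H3K9 methyltransferase, known for constitutive heterochromatin. KRAB zinc finger genes multiply by local duplication and lie in clusters along the chromosomes.

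The libraries held 33497519 to 48572265 counts, and the members together took 0.444% to 0.679% of them. Levels are given as CPM, the usual measure of counts scaled to library size. Suv39h1 itself stood at 51.2 and 38.0 CPM for Suv39h1wt (library 1, then library 2), 28.0 and 41.6 in Suv39h1mut, and 41.3 and 35.03 in Non-injected embryos. Its level therefore does not separate injected from non-injected libraries (log2 difference 0.046 ± 0.445, SE), and it gives no check on the labels. Several marker lists moved with injection and stand beside the results they touch: 2-cell markers such as the Zscan4 genes summed to 442 to 748 CPM in the 4 injected libraries against 284 and 311 in the non-injected ones, and oocyte markers to 1637 to 1803 CPM against 1058 and 1313. Of these lists, 6 of 7 tested 2-cell markers and 7 of 11 oocyte markers had a positive log2 fold change in injected embryos, and Pramef25, Tcstv1, Tcstv3 and Usp17lb were not tested. Cumulus and granulosa markers summed to 24.4 to 41.2 CPM in all 6 libraries, blood markers to 1.07 to 11.4 CPM and sperm markers to 0.0 to 1.91 CPM. In whole-embryo RNA, fewer cells of a state and less RNA per cell cannot be told apart.

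The sequence of the members divides them evenly. Of the 216 members with a coding transcript in the GENCODE vM21 annotation, 208 encode at least 1 Cys2-His2 finger, with a median of 10 fingers per protein and a range from 0 to 37. A stretch resembling the KRAB A box was found in 108 of the 216 and not found in the other 108, while 10 members had no coding transcript to read. The 8 without a finger of this pattern were Zfp185, Zfp259, Zfp330, Zfp36, Zfp503, Zfp703, Zfp750 and Zfp957. Chromosome 7 held 50 members and chromosome 17 held 26. Zfp-named genes, members or not, were joined into runs where the gaps between them were at most 500 kb. Runs with at least 4 members formed 14 clusters with 86 members in all, leaving 140 outside.

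The mean level over the 6 libraries ran from 2.16 CPM for Zfp640 to 326 CPM for Zfp706, with a median of 12.1 CPM. The 10 most abundant genes, led by Zfp706, Zfp592 and Zfp664, made up 28.3% of the members' summed CPM. Per kb of the deposited gene length the range was 0.404 CPM per kb for Zfp704 to 176 CPM per kb for Zfp513, with a median of 5.75. This order depends on the length used, because the deposited length of 7 of the 10 highest genes was under 50% of their longest GENCODE vM21 transcript. Zfp513, a transcription factor gene, is listed at 0.53 kb although its longest transcript has 2.23 kb. Per kb of the longest transcript the first place went to Zfp706 at 73.9 CPM per kb, followed by Zfp957 at 52.9 and Zfp207 at 43.8. Zfp207 (BuGZ) binds spindle microtubules and the checkpoint protein Bub3. Zfp706, Zfp207, Zfp664, Zfp513 and Zfp707 were among the 10 highest on both scales, and Zfp106, Zfp217, Zfp644, Zfp735 and Zfp961 only on the scale of the deposited length.

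Across all members, no gene passed an adjusted p of 0.05 between injected and non-injected embryos in edgeR's quasi-likelihood test, where percent called over all 17638 genes tested was also 0.0%. The smallest adjusted p among members was 0.701. At an unadjusted p under 0.05 edgeR gave 17 members, or 7.52% against 6.88% of all genes, a share near the background. Of these 9 were higher and 8 lower, where 2.68% of all genes were higher and 4.21% lower. With the library number as a block this count was 28, or 12.4% against 12.2% of all genes. DESeq2 called 3 members, Zfp580, Zfp616 and Zfp735, against 1.95% of all genes. The median log2 fold change of the members was 0.15, against -0.02 for all genes tested, with 130 members higher and 96 lower in injected embryos. Unlike all genes tested, the members were chosen by counts summed over mostly injected libraries, which favours genes high in injected embryos. Since the comparisons of each injected group with non-injected embryos share their 2 control libraries, their values are given side by side below and not as support for each other.

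The summed levels of members with a KRAB-like stretch and of those without it lay on different sides of the controls, a division made after the values had been seen and so given without a test. The 108 KRAB-like members summed to 2074 and 1974 CPM in Suv39h1wt, 2139 and 2284 CPM in Suv39h1mut, and 1584 and 1559 CPM in Non-injected libraries 1 and 2. All 4 injected libraries were above both controls, with a ratio of the group means of 1.35. The 108 members without the stretch summed to 3718 and 3642 CPM in Suv39h1wt, 3662 and 3294 CPM in Suv39h1mut, and 3924 and 3773 CPM in Non-injected embryos. Here all 4 injected libraries were below both controls, with a ratio of 0.930. The KRAB-like members took 28.1% and 28.6% of the members' summed CPM in the non-injected libraries and 34.2% to 39.7% in the injected ones, a share that no scaling between libraries can move.

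**Figure D1:**
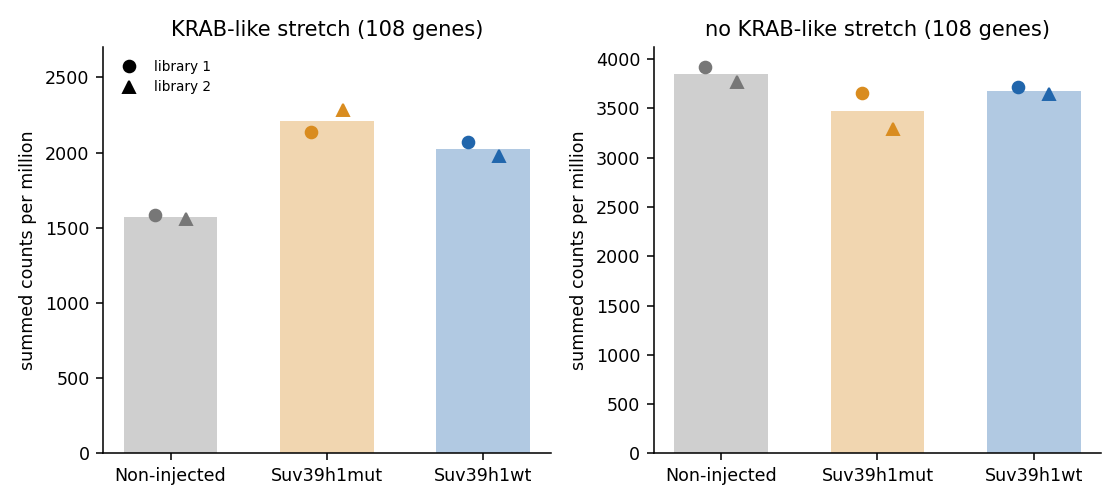
Summed CPM of the members with a KRAB-like stretch (left) and without it (right) in each library; bars are group means of 2 libraries from an axis starting at 0, circles are library 1 and triangles library 2. The KRAB-like sums were 1974 to 2284 CPM in injected libraries and 1559 to 1584 CPM in non-injected ones, and the other sums were 3294 to 3718 and 3773 to 3924 CPM.

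Gene by gene, 76 of the 108 KRAB-like members had a positive log2 fold change in injected embryos, with a median of 0.50, and 48 of the 108 others, with a median of -0.09 that was 0.008 and 0.006 without Non-injected library 1 and 2. For Suv39h1wt alone and Suv39h1mut alone, each relative to Non-injected, the KRAB-like medians were 0.48 and 0.55, and those of the others -0.06 and -0.16. All 4 injected libraries exceeded both controls in 23 of the 108 KRAB-like members, or 21.3%, and lay below both in 5. For members without the stretch these counts were 4 and 14. The background over all genes was 8.59% higher and 8.47% lower, and over all 226 members 31 were higher and 19 lower. The background genes met no limit on summed counts, whereas that limit favours members high in the mostly injected libraries. The members' shares are therefore not directly comparable with the background. Members with and without the stretch met the same limit, but its effect on each set was not tested. The 2-cell and the oocyte marker sums were also higher in all 4 injected libraries. Their part in the difference between members with and without the stretch was not tested. Within library number 1 the KRAB-like sum was 1.31 times the control in Suv39h1wt and 1.35 times in Suv39h1mut, and within number 2 it was 1.27 and 1.46 times.

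The summed level of KRAB-like members was above both controls in every injected library outside the clusters and with either class of promoter. Outside the 14 clusters, 43 KRAB-like members summed to 1003 to 1145 CPM in injected libraries against 789 and 826 CPM in the controls. Such sums weigh abundant genes most, here among them Zfp735 and Zfp616, which are described below. Of these 43 members, 29 had a positive and 14 a negative log2 fold change, with a median of 0.46. Among the 184 members matched to a RefSeq promoter, 120 (65.2%) had a CpG observed-to-expected ratio of at least 0.6. For all 27025 genes of the promoter table, which were not chosen by read counts, the share was 38.4%. The highest ratio was used where a gene had several promoters. KRAB-like members with a CpG-poor promoter, 46 in number, had a median log2 fold change of 0.78 and summed to 826 to 979 CPM in injected libraries against 535 and 559 CPM in controls. The 48 KRAB-like members with a CpG-rich promoter had a median of 0.31 and summed to 669 to 871 CPM against 557 and 651 CPM. CpG-poor members without the stretch numbered 15, with a median of -0.33.

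The largest cluster, 16 members between 21.1 and 23.7 Mb of chromosome 17 (mm9), was the only one of the 14 in which every member had a higher fitted level in injected embryos. The cluster runs from Zfp160 to Zfp40, all 16 carry a KRAB-like stretch, and the median number of fingers was 14.5. Its members summed to 358 and 354 CPM in Suv39h1wt, 378 and 440 CPM in Suv39h1mut, and 251 and 205 CPM in Non-injected libraries 1 and 2. The sum was thus above both controls in all 4 injected libraries, and the ratio of group means was 1.68. All 16 log2 fold changes were positive, from 0.26 to 1.96 with a median of 0.87, and they were also positive in all 16 for Suv39h1wt alone (median 0.72) and Suv39h1mut alone (median 0.82), each relative to Non-injected. Members were chosen by counts summed over all libraries, most of them injected, which favours genes high in injected embryos. The part of this choice in the 16 positive values was not tested. No member of the cluster passed an adjusted p of 0.05, and 1 had an unadjusted p under 0.05 in edgeR's test.

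**Figure D2:**
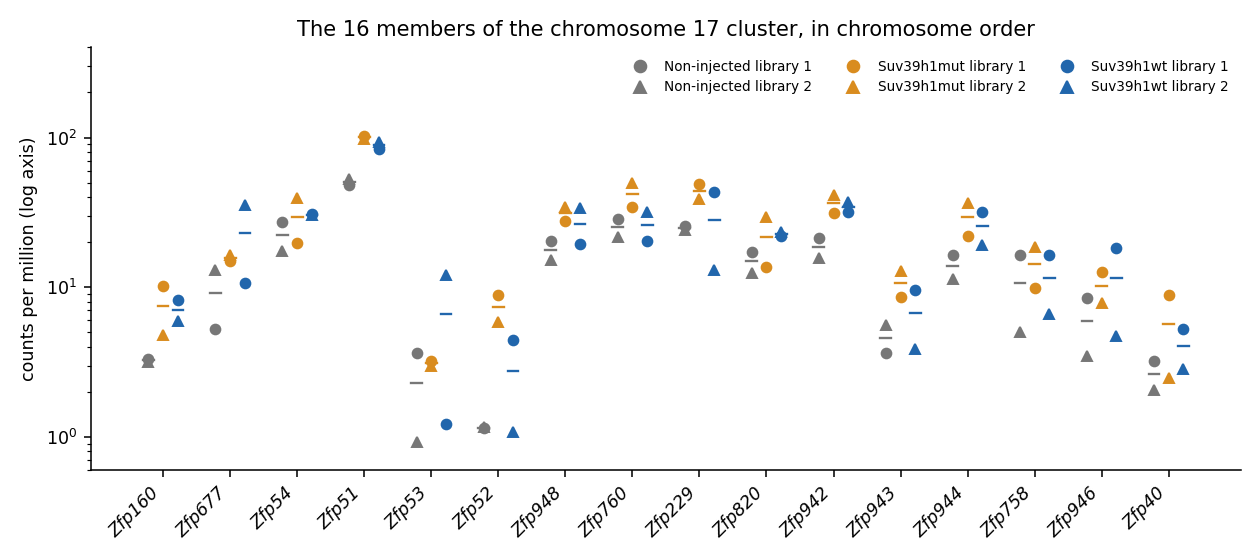
CPM on a log axis of the 16 members of the chromosome 17 cluster in chromosome order, with grey for Non-injected, orange for Suv39h1mut and blue for Suv39h1wt, circles for library 1, triangles for library 2 and short lines for group means. Zfp51 was the most abundant, with 84.4 to 103 CPM in injected libraries and 48.0 and 53.0 CPM in non-injected ones.

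Zfp51, with 20 fingers, was the most abundant gene of that cluster. It stood at 84.4 and 93.8 CPM in Suv39h1wt, 103 and 98.03 CPM in Suv39h1mut, and 48.0 and 53.0 CPM in Non-injected embryos. All 4 injected libraries were above both controls (log2 fold change 0.91 ± 0.39, SE; edgeR adjusted p = 0.701). Zfp942 did not overlap either between injected and non-injected embryos, at 31.5 to 41.3 CPM in injected libraries and 21.5 and 15.8 CPM in controls. Zfp160 and Zfp944 were the other 2 members whose injected libraries all lay above both controls, so 4 of 16 did. Of all genes tested 8.59% were higher in this way, but these were not chosen by summed counts. The other 12 members overlapped. Zfp758, at 16.5 and 6.60 CPM in Suv39h1wt against 16.4 and 4.99 CPM in controls, had the smallest fold change. Another 12 tested genes lie within the span, several of them also Zfp-named, and 10 of these had a positive log2 fold change with a median of 0.99. Shared sequence may limit single values here: up to 22.6% of the 31-base words of a member's transcripts occur in another gene, with a median of 6.80%.

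Clusters on chromosomes 9 and 13 also stood high in injected embryos, but on few genes. At 20.1 to 20.4 Mb of chromosome 9, Zfp560, Zfp26, Zfp426 and Zfp846 summed to 62.5 to 123 CPM in injected libraries against 41.8 and 29.5 CPM. Their median log2 fold change was 1.27, with Zfp26 going the other way, from 7.60 and 4.10 CPM in controls to 1.06 to 3.11 CPM. Without Suv39h1wt library 1 the median for Suv39h1wt against Non-injected changed from 1.24 to -0.39, and Zfp846 stood at 0.633 CPM in the other Suv39h1wt library. At 66.8 to 67.9 Mb of chromosome 13, 7 members summed to 59.3 to 102 CPM against 38.1 and 36.5 CPM, with a median of 1.46 that fell to 0.20 without Suv39h1wt library 1. The median share of words found in other genes was 48.0% in that cluster. How reads matching several genes were counted is not given in the sources used here, so counts in that cluster are uncertain.

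**Figure D3:**
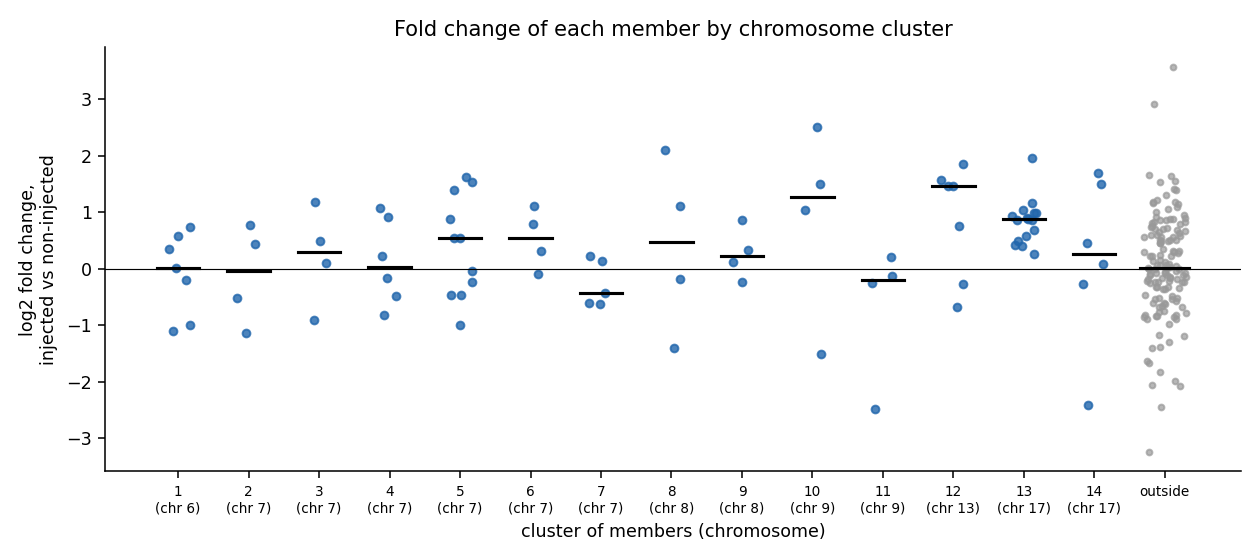
Log2 fold change of each member between injected and non-injected embryos by chromosome cluster (blue points, numbered along the genome), with members outside clusters in grey and medians as black lines. Cluster 13, on chromosome 17, has all 16 points above 0, and clusters 10 and 12 have the highest medians, 1.27 and 1.46.

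In the other 11 clusters the medians lay between -0.42 and 0.55. Only cluster 6, on chromosome 7 with Zfp936, Zfp715, Zfp719 and Zfp819, also had sums above both controls in all 4 injected libraries, at 53.0 to 66.0 CPM against 47.4 and 44.6 CPM. A cluster of 11 members on chromosome 7, from Zfp84 to Zfp146, spanned 169 to 231 CPM in injected and 182 to 200 CPM in control libraries, and so overlapped fully.

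The member nearest to passing on the high side was Zfp735, which lies 356 kb from Zfp616 on chromosome 11, with olfactory receptor genes and predicted genes between them. Both encode a KRAB-like stretch, with 7 and 18 fingers. Their RefSeq promoters (GRCm38.p6, 250 bases before to 50 after the annotated start, 5′ to 3′) are shown with those of Zfp560, also high in injected embryos, and of Zfp259 and Zfp292 on the low side. Zfp410, which ranked between Zfp259 and Zfp292 by p in edgeR's test, was matched to no promoter. Capitals mark CG dinucleotides, which DNA methylation can occupy.
Zfp735, chr11:73688528-73688827, plus strand: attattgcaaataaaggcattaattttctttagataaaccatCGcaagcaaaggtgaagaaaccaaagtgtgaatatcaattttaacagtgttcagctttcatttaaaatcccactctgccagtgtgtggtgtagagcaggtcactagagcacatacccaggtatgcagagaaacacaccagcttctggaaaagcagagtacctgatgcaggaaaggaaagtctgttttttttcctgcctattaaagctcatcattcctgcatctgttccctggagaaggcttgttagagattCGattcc
Zfp616, chr11:74060647-74060946, plus strand: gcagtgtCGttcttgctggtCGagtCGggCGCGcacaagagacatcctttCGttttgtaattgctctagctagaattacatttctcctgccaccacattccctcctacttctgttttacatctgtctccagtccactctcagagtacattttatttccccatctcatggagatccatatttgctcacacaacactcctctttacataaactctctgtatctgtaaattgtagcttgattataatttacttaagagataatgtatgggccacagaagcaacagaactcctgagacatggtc
Zfp560, chr9:20385109-20385408, minus strand: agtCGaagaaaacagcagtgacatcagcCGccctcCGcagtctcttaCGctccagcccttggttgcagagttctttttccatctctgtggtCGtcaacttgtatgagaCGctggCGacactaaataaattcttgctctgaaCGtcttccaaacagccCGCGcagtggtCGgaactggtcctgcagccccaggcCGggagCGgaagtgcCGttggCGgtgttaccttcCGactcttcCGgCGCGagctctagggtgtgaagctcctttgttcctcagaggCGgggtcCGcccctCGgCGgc
Zfp259 (Zpr1), chr9:46272814-46273113, plus strand: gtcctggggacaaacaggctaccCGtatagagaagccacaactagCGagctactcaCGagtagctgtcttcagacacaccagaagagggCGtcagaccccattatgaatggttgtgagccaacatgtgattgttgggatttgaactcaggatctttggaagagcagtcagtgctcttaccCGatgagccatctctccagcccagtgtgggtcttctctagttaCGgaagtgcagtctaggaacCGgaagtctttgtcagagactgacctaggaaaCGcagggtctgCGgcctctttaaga
Zfp292, chr4:34882899-34883198, minus strand: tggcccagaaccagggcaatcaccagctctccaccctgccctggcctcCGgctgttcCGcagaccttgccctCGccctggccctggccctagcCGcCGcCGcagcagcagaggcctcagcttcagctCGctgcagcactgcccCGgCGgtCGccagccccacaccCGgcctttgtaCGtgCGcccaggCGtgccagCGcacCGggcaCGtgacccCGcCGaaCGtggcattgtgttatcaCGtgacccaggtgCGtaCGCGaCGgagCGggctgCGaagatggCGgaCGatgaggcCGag
The promoter of Zfp735 holds 2 CG dinucleotides (observed-to-expected ratio 0.164) and that of Zfp616 holds 6 (0.471), while that of Zfp560 holds 23 (0.893). On the low side the promoter of Zfp259 holds 9 (0.457) and that of Zfp292 holds 30 (0.820). Among the genes shown, those with few and with many CG dinucleotides thus stand on both sides. Over the matched members, the 64 with a ratio under 0.6 had a median log2 fold change of 0.56 in injected embryos, with 42 higher and 22 lower. The 120 with a ratio of at least 0.6 had a median of 0.03, with 62 higher and 58 lower. On either strand, CCAAT occurs in a promoter of 49.5% of the 184 matched members and of 41.1% of all genes of the promoter table. For TATAAA these shares are 7.07% and 15.7%.

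Zfp735 stood at 91.9 and 93.3 CPM in Suv39h1wt, 119 and 93.6 CPM in Suv39h1mut, and 23.2 and 39.5 CPM in Non-injected libraries 1 and 2. Every injected library was above both controls, and the second Suv39h1mut library was close to both Suv39h1wt libraries. Its log2 fold change was 1.66 ± 0.44 (SE), with an adjusted p of 0.701 in edgeR and 0.0381 in DESeq2. Zfp616 showed nearly the same levels, at 95.4 and 76.3 CPM in Suv39h1wt, 117 and 94.8 CPM in Suv39h1mut, and 31.8 and 34.2 CPM in Non-injected embryos. Its log2 fold change was 1.53 ± 0.42 (SE), with an adjusted p of 0.701 in edgeR and 0.0372 in DESeq2. Of its transcript words 4.28% occur in other genes, and of those of Zfp735 5.11%.

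Zfp560 stood at 106 and 65.5 CPM in Suv39h1wt, 76.3 and 45.6 CPM in Suv39h1mut, and 29.7 and 21.4 CPM in Non-injected embryos. The injected libraries were all above both controls and the injected groups overlapped each other, and the log2 fold change was 1.504 ± 0.48 (SE; edgeR adjusted p = 0.701). Zfp708, a KRAB zinc finger gene known to bind retroelements in the mouse germline, was at 34.9 and 25.3 CPM in Suv39h1wt, 44.5 and 24.7 CPM in Suv39h1mut, and 12.4 and 11.0 CPM in controls. It is uncertain, since 95.6% of its transcript words occur in another gene and the table holds a second Zfp708 entry. Zfp580, which has 3 fingers and no KRAB-like stretch, was the leading gene without that stretch on the high side. Its levels were low, at 2.95 to 12.5 CPM in injected libraries against 0.867 and 0.092 CPM in controls, and its log2 fold change of 3.57 ± 1.31 (SE) had an edgeR adjusted p of 0.701 and a DESeq2 adjusted p of 0.0265.

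**Figure D4:**
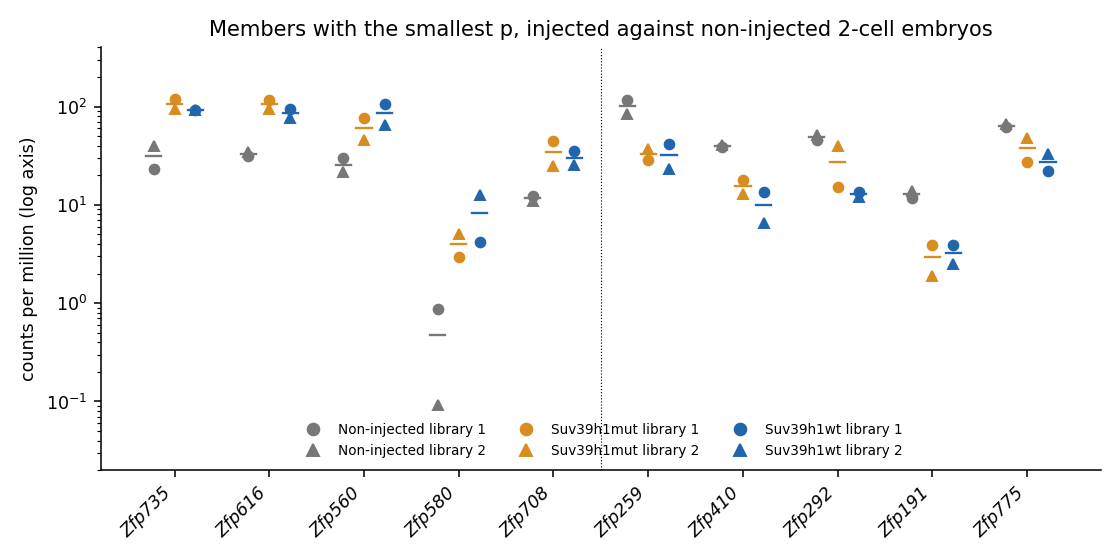
CPM on a log axis of the 5 members with the smallest p on the high side (left of the dotted line) and the 5 on the low side (right) between injected and non-injected embryos. Grey is Non-injected, orange Suv39h1mut and blue Suv39h1wt, with circles for library 1, triangles for library 2 and short lines for group means. For all 10 genes the injected and non-injected libraries do not overlap, which is how the genes were chosen.

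The 8 members lower at an unadjusted p under 0.05 all lacked a KRAB-like stretch, and 8 of the 9 higher ones had it. Zfp259 (now Zpr1), whose product binds the translation elongation factor eEF1A, led the low side. It stood at 42.0 and 23.1 CPM in Suv39h1wt, 28.3 and 37.3 CPM in Suv39h1mut, and 118 and 84.1 CPM in Non-injected embryos. All 4 injected libraries were below both controls (log2 fold change -1.63 ± 0.43, SE; edgeR adjusted p = 0.701). Zfp410, known as an activator of the chromatin remodeller gene Chd4, was at 13.5 and 6.48 CPM in Suv39h1wt, 18.1 and 12.9 CPM in Suv39h1mut, and 38.5 and 40.5 CPM in controls. Its log2 fold change was -1.67 ± 0.52 (SE; edgeR adjusted p = 0.701). Chd4 itself was at 143 and 71.5 CPM in Suv39h1wt, 114 and 41.6 CPM in Suv39h1mut and 109 and 55.3 CPM in Non-injected embryos, and overlapped between the groups.

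Zfp292, a large factor with 15 fingers in 2698 residues, was at 13.4 and 12.1 CPM in Suv39h1wt, 15.1 and 39.3 CPM in Suv39h1mut, and 45.7 and 51.5 CPM in Non-injected embryos. The second Suv39h1mut library lay close to the controls, and the log2 fold change was -1.38 ± 0.50 (SE). Zfp191 (now Zfp24), a SCAN zinc finger gene needed for myelination in mice, was at 1.90 to 3.95 CPM in injected libraries against 11.8 and 13.96 CPM. Zfp775 was at 22.3 to 48.1 CPM in injected libraries against 62.1 and 65.7 CPM. Both had an edgeR adjusted p of 0.701.

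Members with known silencing roles did not follow one direction. Of the 11 tested entries of a list of genes for silencing of retroelements, imprints and pericentromeres, 10 of them members, 4 had a higher and 7 a lower fitted level in injected embryos, with a median log2 fold change of -0.32 and 0 called. Zfp445, a guardian of imprints, was at 6.09 and 17.8 CPM in Suv39h1wt, 18.9 and 17.7 CPM in Suv39h1mut, and 30.2 and 21.98 CPM in controls. Zfp568, a repressor of a placental Igf2 transcript, was at 53.7 to 61.7 CPM in injected libraries and 86.2 and 76.1 CPM in controls. Both were below the controls in every injected library, unlike most KRAB-like members. Zfp809, which silences murine leukaemia viruses, overlapped between the groups at 32.3 to 35.9 CPM against 51.3 and 31.2 CPM. Higher were Zfp932 (log2 fold change 1.30), Zfp819 (0.79), Zfp708 (1.47) and the second Zfp708 entry (1.08), which is not a member. Zfp932, Zfp819 and the member entry of Zfp708 carry a KRAB-like stretch, as do Zfp445, Zfp568 and Zfp809 among the lower ones. The remaining lower entries, Zfp462, Zfp512, Zfp644 and Zfp828, lack it.

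The list of transcription factors and chromatin partners outside the KRAB family had 12 of 26 tested genes higher and 14 lower, with a median of -0.06 and 0 called. Zfp143, a promoter-binding activator, was at 20.9 to 37.1 CPM in injected libraries and 47.1 and 43.9 CPM in controls. The list for RNA and translation had 3 of 9 higher and 6 lower, with a median of -0.35 and 0 called. Among the partners of KRAB zinc finger proteins and of H3K9 methylation, none of which is a member, 15 of 26 tested entries were higher and 11 lower in injected embryos, with a median of 0.10 and 0 called. Trim28, the KRAB corepressor, was at 64.7 and 161 CPM in Suv39h1wt, 59.4 and 130 CPM in Suv39h1mut, and 83.1 and 255 CPM in Non-injected embryos, higher in library 2 of each group. Setdb1 was at 60.0 and 16.9 CPM, 49.6 and 63.0 CPM, and 30.7 and 25.1 CPM in the same order. Ehmt2 (G9a) was at 2.57 to 12.2 CPM in injected libraries and 8.75 and 32.6 CPM in controls, with a log2 fold change of -2.04 that did not pass adjustment.

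Between Suv39h1wt and Suv39h1mut, both of which received mRNA, 0 members were called by edgeR and 0 by DESeq2. Percent called over all genes was 0.0% and 0.521% in the same order. The smallest edgeR adjusted p was 1.0. At an unadjusted p under 0.05 edgeR gave 1 member, or 0.442% against 2.72% of all genes, and 7 with the library number as a block, or 3.10% against 4.02%. The median log2 fold change was -0.09, against -0.01 for all genes, with 96 members higher in Suv39h1wt and 130 lower. The libraries did not overlap in 17 members on the high side, or 7.52% against 12.3% of all genes, and in 29 on the low side, or 12.8% against 15.1%. KRAB-like members had a median of -0.21 with 38 higher and 70 lower, and the others a median of 0.02, which was -0.05 under upper-quartile scaling. The KRAB-like median was -0.002 without Suv39h1mut library 2, and 0.019 without it in the fit with the library number as a block. The authors' deposited table has an adjusted p under 0.05 for 58 of 14950 genes and for 0 of 226 members, the smallest being 0.2095 for Zfp335.

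Zfp326, which encodes a subunit of the DBIRD complex linking transcription with splicing, was the 1 member with an unadjusted p under 0.05. It stood at 8.06 and 18.7 CPM in Suv39h1wt, 3.52 and 2.33 CPM in Suv39h1mut, and 3.88 and 3.77 CPM in Non-injected embryos. Both Suv39h1wt libraries were above the other 4 (log2 fold change 2.19 ± 0.94 against Suv39h1mut, SE; edgeR adjusted p = 1.0). Zfp687 was at 10.8 and 28.9 CPM in Suv39h1wt and 9.42 and 4.51 CPM in Suv39h1mut, and 12.4 and 14.9 CPM in controls, which lay between the 2 Suv39h1wt libraries. On the low side, Zfp462, a factor that recruits G9a and GLP in mouse stem cells, was at 1.46 and 0.512 CPM in Suv39h1wt, 6.88 and 3.11 CPM in Suv39h1mut, and 4.21 and 19.96 CPM in controls. Its libraries were lowest in Suv39h1wt, with a log2 fold change of -2.33 ± 1.14 (SE) against Suv39h1mut. Zfp819, a KRAB factor that represses retroelements in mouse stem cells, was at 8.04 and 23.3 CPM in Suv39h1wt, 2.89 and 7.43 CPM in Suv39h1mut, and 3.04 and 7.38 CPM in controls. Zfp608 was at 14.9 and 4.91 CPM in Suv39h1wt, 23.2 and 29.2 CPM in Suv39h1mut, and 12.1 and 8.54 CPM in controls, so that Suv39h1mut stood apart.

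Against Non-injected embryos, edgeR called 0 members for Suv39h1wt and 0 for Suv39h1mut, with percent called 0.0% over all genes in both. At an unadjusted p under 0.05 it gave 13 members for Suv39h1wt (5.75%, against 6.16% of all genes) and 10 for Suv39h1mut (4.42%, against 4.43%). With the library number as a block these were 21 (9.29%, against 10.2%) and 27 (11.9%, against 9.98%). DESeq2 called Zfp580 and Zfp462 for Suv39h1wt, against 2.42% of all genes, and 0 members for Suv39h1mut, against 0.725%. The medians of the members were 0.09 for Suv39h1wt and 0.20 for Suv39h1mut, each against 0.02 for all genes. Non-overlapping libraries were found in 45 members higher and 32 lower for Suv39h1wt, against 16.8% and 17.5% of all genes. For Suv39h1mut they were found in 62 members higher and 28 lower, against 18.9% and 16.5%. Unlike all genes, the members met a limit on summed counts, and its part in these values was not tested. Zfp735, Zfp616 and Zfp560 were among the 5 genes of smallest p on the high side in both comparisons, and Zfp259 and Zfp410 on the low side.

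Libraries 1 and 2 of the same group differed widely, as shown by the members and by all genes. The median absolute log2 ratio of library 2 to library 1 was 0.922 for the Suv39h1wt libraries, 0.690 for Suv39h1mut and 0.759 for the controls. For all genes it was 1.1, 0.955 and 0.988 in the same order. Over the 11325 genes with a mean CPM at or above that of the lowest member it was 0.911, 0.757 and 0.795. What the number marks is not given in the labels. In all, 6 members passed an adjusted p of 0.05 between numbers 2 and 1 in edgeR's fit with group and number, or 2.65% of members against 3.12% of all genes. This number was 1 without Suv39h1mut library 1, 2 and 3 without Non-injected library 1 and 2, and 11 without Suv39h1mut library 2. Zfp329 was at 34.95, 40.5 and 15.5 CPM in the number 1 libraries of Suv39h1wt, Suv39h1mut and Non-injected, and at 3.50, 1.55 and 2.20 CPM in the number 2 libraries (log2 fold change -3.61 ± 0.58, SE; adjusted p = 0.0125). Zfp707 went the other way, at 47.9, 37.7 and 91.7 CPM against 191, 114 and 181 CPM (log2 fold change 1.52 ± 0.27, SE; adjusted p = 0.0180). Zfp622, a factor of ribosome assembly, was at 116, 57.2 and 109 CPM against 207, 144 and 217 CPM. Zfp335, a factor bound to H3K4 methyltransferase complexes, was at 1.71, 6.65 and 6.07 CPM against 7.80, 20.97 and 61.5 CPM. Zfp689 was also higher in number 2, and Zfp91 was lower.

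**Figure D5:**
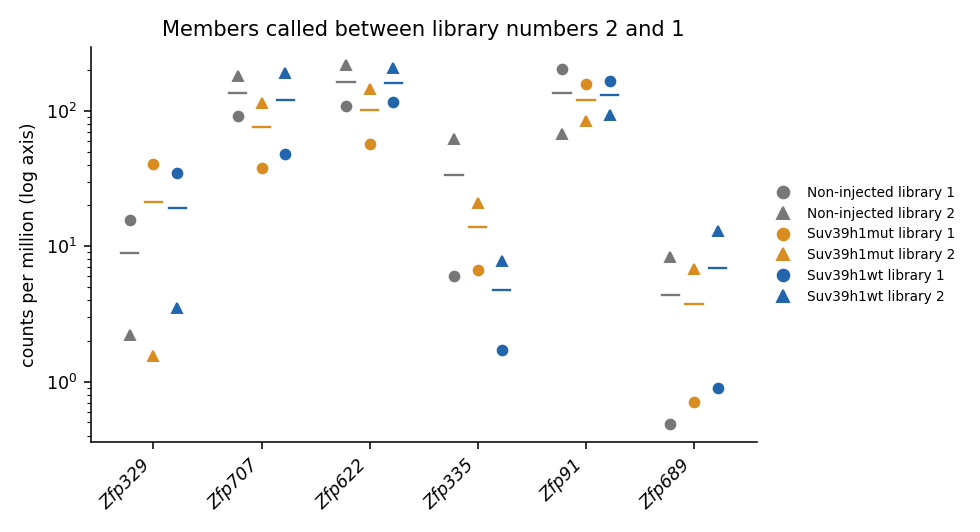
CPM on a log axis of the 6 members called between library numbers 2 (triangles) and 1 (circles), with grey for Non-injected, orange for Suv39h1mut and blue for Suv39h1wt and short lines for group means. In each group the triangle lies on the same side of the circle, as for Zfp329, at 1.55 to 3.50 CPM in number 2 and 15.5 to 40.5 CPM in number 1.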

How the data were processed

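Total RNA from 2-cell embryos was amplified before sequencing, per the labels' protocols. Per the submitters' processing notes, CASAVA 1.8.2, TopHat2 2.0.14, Bowtie and HTSeq 0.6.1 were used with mm9; the annotation release and strand setting are not given in the sources used here, so overlapping and multi-copy genes are uncertain (61 of 226 members overlap another gene of the table). Raw read counts of 26982 genes were deposited in one table, per the file headers. Its signal columns, the authors' normalized counts and those divided by gene length, served only to obtain gene length. Its log2 fold changes and p-values come from the authors' own comparison of both injected groups.

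The tests started from the raw counts. edgeR 4.0.16 in R 4.3.3 was run on the 6 libraries together, with 1 term per group (robust quasi-likelihood F test, TMM scaling, filterByExpr with minimum count 10), leaving 17638 genes, 3 residual degrees of freedom and a biological coefficient of variation of 0.862. CPM use TMM library sizes. Benjamini-Hochberg adjusted p under 0.05 over all genes tested counted as called. The comparison of injected with non-injected embryos takes the mean of both injected groups. Alternatives were other scalings, no filter, DESeq2 1.42.0, the library number as a block and leaving out each library. The main fit holds no term for the library number, since the labels state no pairing. The numbers were treated as pairing the libraries only in fits with the block and in ratios within a number. The departures of libraries with 1 number from the mean of their group correlated at 0.141 to 0.196 over all genes (0.472 to 0.501 over 6820 genes above 10 CPM). The script was tested on simulated data.

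The members and lists were chosen with earlier results of these data known. Genes named were the called members or, where there were under 5 in a direction, the 5 of smallest p without overlap. The 10 highest per kb and leading genes of clusters and role lists were also named. Zfp942, Zfp568, Zfp445, Zfp809, Zfp932, Zfp512, Zfp828, Zfp143, Chd4, Trim28, Setdb1 and Ehmt2 were chosen after their values were seen. Fingers and KRAB-like stretches (in the first 300 residues) were found by pattern in proteins translated from GENCODE vM21 transcripts, a pattern match that can miss or add genes. Promoters were RefSeq's, on GRCm38.p6; other coordinates are those of the deposited table. With 2 libraries a group, precision is limited by the spread between them.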

Additional observations from a re-analysis of the deposited data

How the results depend on the processing

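The direction of the chromosome 17 cluster and of the KRAB-like members against non-injected embryos held under every scaling, filter, tool and omitted library that was run. The KRAB-like median for injected embryos ranged from 0.41 to 0.72 without 1 library, from 0.34 to 0.60 for Suv39h1wt and from 0.40 to 0.80 for Suv39h1mut. For members without the stretch these ranges were -0.194 to 0.06, -0.312 to 0.054 and -0.285 to 0.047, above 0 only without a control library, so their direction is not stable. Upper-quartile scaling moved the median of all genes for Suv39h1mut against Non-injected by 0.11, and with it the KRAB-like median to 0.68 and the median of all members to 0.29. It also moved the members' median to 0.23 for injected embryos and to -0.16 for Suv39h1wt against Suv39h1mut.

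With the library number as a replicate block the members' median was 0.22 for injected embryos and -0.15 for Suv39h1wt against Suv39h1mut, and the chromosome 9 median was 0.84 for Suv39h1wt against Non-injected; the block changed no call on members among the 4 group comparisons. DESeq2 called 2 members for Suv39h1wt and 3 for injected embryos against Non-injected. Without 1 library, members called ranged from 0 to 4 for Suv39h1wt, 0 to 3 for Suv39h1mut and 0 to 6 for injected embryos against Non-injected, with all calls in fits with the block (highest without Suv39h1mut library 2, without either Suv39h1wt library, and without Suv39h1wt library 1). Calls between library numbers ranged from 1 without Suv39h1mut library 1 to 11 without Suv39h1mut library 2.

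The members' median without 1 library ranged from 0.049 to 0.44 for injected embryos, 0.006 to 0.353 for Suv39h1wt and 0.11 to 0.46 for Suv39h1mut against Non-injected, and from -0.28 to 0.02 between Suv39h1wt and Suv39h1mut, where the KRAB-like median ranged from -0.407 to 0.019 and that of the others from -0.27 to 0.18. The chromosome 9 median ranged from 0.40 to 1.58 for injected embryos, -0.39 to 1.70 for Suv39h1wt, 0.65 to 1.68 for Suv39h1mut, and -0.65 to 0.49 between the injected groups. The chromosome 13 median ranged from 0.20 to 1.58, 0.22 to 1.33, 1.02 to 2.02, and -1.64 to -0.14 in the same order, and was -0.62 between the injected groups with a gap of 250 kb.

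Members with at least 20 counts in every library had a median of -0.034 between the injected groups, and those with at least 1200 counts one of 0.21 for injected embryos. Restricting members to those with under 5% of words shared, a choice made after seeing the data, gave medians of -0.02 between the injected groups, 0.063 for Suv39h1mut and 0.084 for injected embryos against Non-injected, and a KRAB-like median of 0.44 for Suv39h1mut; for the chromosome 13 cluster it left no gene. The cause of these shifts was not tested. With 2 libraries a group, precision is limited by a biological coefficient of variation of 0.862, and by low counts in the members outside the 202 with at least 20 counts in every library.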
